A study of Mus musculus with 12 samples.

Results

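iTreg cells were compared with Th0 cells after 72 h of culture across all genes of the deposited iTreg versus Th0 table, 8 of the 12 libraries of the series. Naive CD4+ T cells came from spleens of C57BL/6 mice of 8 to 10 weeks, and all cultures were activated with plate-bound anti-CD3 and anti-CD28, each at 1 µg/ml. Th0 cells (4 libraries) received no polarizing cytokine. iTreg cells (4 libraries) received IL2 at 10 ng/ml together with TGFβ1, for which the labels give 10 ng/ml and the methods 20 ng/ml. The 2 groups therefore differ in 2 added cytokines at once, and the response to IL2 and the response to TGFβ1 cannot be told apart. The cultures are bulk populations, in which a change in the share of cells that express a gene and a change in its level per cell cannot be told apart. Of 11056 genes listed in the table, the 10208 with more than 1 FPKM (fragments scaled for transcript length and sequencing depth) in at least 4 of the 8 libraries were tested, and 848 were not.

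T cell receptor and CD28 signals make naive T cells produce IL2, enter the cell cycle and switch their metabolism to growth. TGFβ receptors phosphorylate Smad2 and Smad3, which together with signals from the T cell receptor and from IL2 through STAT5 switch on Foxp3, the transcription factor that defines regulatory T cells. Regulatory T cells generated in this way in culture are called induced regulatory T (iTreg) cells, and they are known for suppressing other T cells through surface molecules such as CTLA4 and CD73 and through consumption of IL2.

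Libraries are named by the beginnings of their column headings (M22, M29, M42, and M43), which occur once in each group, and the 4 values of a gene are given in this order. Otherwise levels are means ± SD of 4 libraries, and log2 fold changes (log2FC, iTreg minus Th0) are given ± SE on the log2(FPKM + 1) scale, which understates changes of low genes. Positions are those of GRCm38, which is mm10. What a beginning marks is not stated, but libraries that share one deviated from their group means together, so a second fit has it as a replicate block. A rough estimate of relative depth from low FPKM values was 0.826 to 1.03 in Th0 and 0.974 to 1.19 in iTreg libraries. All 15 T cell identity genes were measured, with a summed level of 2020 to 3504 FPKM in Th0 libraries and 2291 to 3225 FPKM in iTreg libraries, and Cd4 was at 280.1, 254, 80.3, and 207 FPKM in Th0 and 206, 152, 78.2, and 196 FPKM in iTreg cells. Of 10 B cell markers, only Cd79a was in the table, at 0.638 to 3.8 FPKM in Th0 libraries and 0.505 to 2.0 FPKM in iTreg libraries, and the defining marker Ms4a1 was not listed. Of 20 myeloid and antigen-presenting markers, 3 were in the table (Cd68, Cd74, and H2-Ab1; 21.3 to 35.9 FPKM in Th0 libraries and 14.2 to 39.6 FPKM in iTreg libraries). Among 12 erythroid and stromal markers only Pecam1, which T cells also express, was in the table (12 to 22.7 FPKM in Th0 libraries and 4.6 to 8.32 FPKM in iTreg libraries), and among 18 CD8 and cytotoxic markers only Cd8b1, Gzmb, Nkg7, and Ctsw (35.6 to 97.9 FPKM in Th0 libraries and 202 to 339 FPKM in iTreg libraries, a difference made by Ctsw). Cd8a, Lyz2, Csf1r, and the haemoglobin genes were not listed. H2-Ab1, a class II antigen-presenting chain, was at 4.7 ± 2.81 FPKM in Th0 and 0.64 ± 0.503 FPKM in iTreg cells and fell (log2FC -1.69 ± 0.39, adjusted p = 0.0186), a call that leaving out iTreg M22 ended (adjusted p = 0.0557). Pecam1 fell as well (log2FC -1.19 ± 0.23, adjusted p = 0.00912). The part of these markers in the other results was not tested.

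Expression differed between iTreg and Th0 cells for 1691 of the 10208 genes, 16.6% (limma on log2(FPKM + 1), false discovery rate, FDR, 0.05). Of these 853 (8.36%) were higher and 838 (8.21%) were lower in iTreg cells. With the replicate block, which removes what libraries of the same heading beginning share, 4170 genes (40.9%) were called, 2131 higher (20.9%) and 2039 lower (20%), and they include all 1691 of the first fit. Groups did not overlap for 2323 genes (22.8%), 1197 of them higher (11.7%) and 1126 lower (11%). Large changes were mostly increases: 119 genes called without the block rose by at least 2 log2 units and 27 fell by as much. The 2479 genes called only with the block had a median absolute log2FC of 0.35, against 0.75 for the genes called in both fits. Of these 2479 genes 2424 changed in the same direction in all 4 heading pairs, as did 5773 (56.6%) of all tested genes. The block fit favors genes whose 4 pair differences agree, so the count of 2424 follows largely from that choice and does not back these calls. Group accounted for 52.4% of the sum of squares over all genes, heading beginning for 40.3%, and the remainder for 7.25%. Leaving out Th0 M22 left 520 genes called lower, and leaving out iTreg M22 left 525. Where several libraries are named as left out, each was left out alone. Some genes are on more than 1 of the gene lists below, so the counts of different lists are not independent. Counts of gene lists are to be read beside the shares of all tested genes. These are 8.36% higher and 8.21% lower without the block, and 20.9% and 20% with it.

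**Figure D1:**
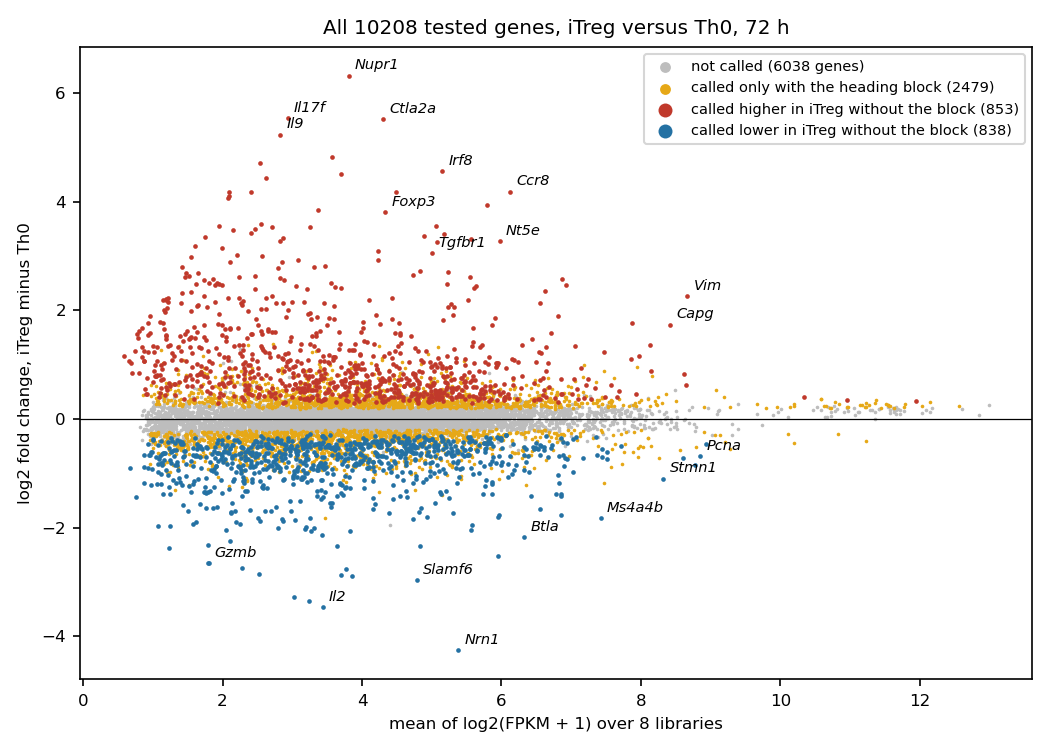
Each point is 1 of the 10208 tested genes, by its mean log2(FPKM + 1) over 8 libraries (x axis) and its log2FC, iTreg minus Th0 (y axis). Red (853) and blue (838) points were called without the block, yellow points (2479) only with it, and named genes run from Nupr1 at 6.32 to Nrn1 at -4.26.

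Nupr1, a small stress-induced nuclear protein (chr7:126623249-126630861, minus strand), had the largest log2FC of the called genes, with 1.48, 0.202, 0.341, and 0.507 FPKM in Th0 and 163, 73.1, 141, and 139.9 FPKM in iTreg cells (log2FC 6.32 ± 0.30, adjusted p = 1.03e-05). Each iTreg library was far above every Th0 library. Ctla2a, an inhibitor of cathepsin-type cysteine proteases (chr13:60934155-60936625, minus strand), was at 1.42, 1.63, 1.99, and 2.73 FPKM in Th0 and 179, 102, 143, and 117 FPKM in iTreg cells (log2FC 5.52 ± 0.20, adjusted p = 2.80e-06). The closely related Ctla2b rose with it (log2FC 4.44 ± 0.22), but 68.7% of its exonic bases are shared with overlapping gene models and reads may have been split between the copies, so both values are uncertain. Cytokine genes are also in this group. Il17f (chr1:20777146-20790617, minus strand) was at 0.112, 0.107, 0.181, and 0.0898 FPKM in Th0 and 37.8, 26.9, 66.4, and 99.2 FPKM in iTreg cells (log2FC 5.53 ± 0.35, adjusted p = 3.27e-05), and Il9 at 0, 0, 0, and 0.79 FPKM in Th0 and 46, 14, 66.6, and 74.6 FPKM in iTreg cells (log2FC 5.23 ± 0.48, adjusted p = 0.000221). Il9 was thus listed at 0 in 3 of 4 Th0 libraries, and its fold change depends on the pseudocount. Irf8, an interferon regulatory factor (chr8:120736358-120756694, plus strand), was at 5.09, 1.74, 11, and 13 FPKM in Th0 and 158, 115, 234, and 205 FPKM in iTreg cells (log2FC 4.57 ± 0.49, adjusted p = 0.000446). Ccr8, a chemokine receptor found on regulatory T cells, was at 29.6, 15, 8.59, and 14.6 FPKM in Th0 and 372, 302, 179, and 389.6 FPKM in iTreg cells (log2FC 4.18 ± 0.36, adjusted p = 0.000163). iTreg values of both genes exceeded all Th0 values. Fam129b (log2FC 4.83 ± 0.22), Kctd14 (4.72 ± 0.32), and Aqp3, a water and glycerol channel (4.52 ± 0.32), complete the 10 genes with the highest fold change. None of the 10 overlapped between the groups, which the naming rule required.

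Nrn1, which encodes the membrane-anchored protein neuritin (chr13:36725361-36735131, minus strand), had the largest fall, from 182, 51.8, 273, and 417 FPKM in Th0 to 8.7, 3.99, 7.87, and 18.2 FPKM in iTreg cells (log2FC -4.26 ± 0.63, adjusted p = 0.00254). The groups were separate although Th0 libraries differed widely, and 22.3% of its exonic bases overlap Fars2. Il2, the gene of the cytokine that was added to the iTreg cultures (chr3:37120523-37125959, minus strand), was at 33.9, 18.8, 42.2, and 55.6 FPKM in Th0 and 1.26, 1.5, 3.4, and 3.54 FPKM in iTreg cells (log2FC -3.47 ± 0.35, adjusted p = 0.000353). Its mRNA was lower in every iTreg library than in any Th0 library. Slamf6, a SLAM family receptor, was at 88.2, 106, 65.4, and 54 FPKM in Th0 and 8.44, 11.4, 7.99, and 8.05 FPKM in iTreg cells (log2FC -2.96 ± 0.21, adjusted p = 5.74e-05). Kcna3, the voltage-gated potassium channel Kv1.3 of T cells, was at 36.8, 49.4, 28.4, and 26.7 FPKM in Th0 and 4.0, 6.12, 3.04, and 4.2 FPKM in iTreg cells (log2FC -2.75 ± 0.23, adjusted p = 0.000129). These falls of Slamf6 and Kcna3 left 4 iTreg values well below the lowest Th0 value of each gene. Pyhin1 and BC094916, of the interferon-inducible HIN-200 family, fell by 3.27 and 2.84 on the log2 scale. Phf11b fell by 3.36 on the same scale. All 3 belong to families of near-identical copies, so reads may have been split among them. The calmodulin-binding neurogranin gene Nrgn (log2FC -2.9 ± 0.42, adjusted p = 0.00216), AI504432 (log2FC -2.87 ± 0.23), and Zfp467 (-2.73 ± 0.19) are the other genes with the largest falls. AI504432 (chr3:107039504-107054347) lies next to Kcna3 (chr3:107036169-107038070) on the same strand and had similar values. Whether the 2 are separate transcripts was not tested. The naming rule required that none of the genes of this paragraph overlapped between the groups.

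**Figure D2:**
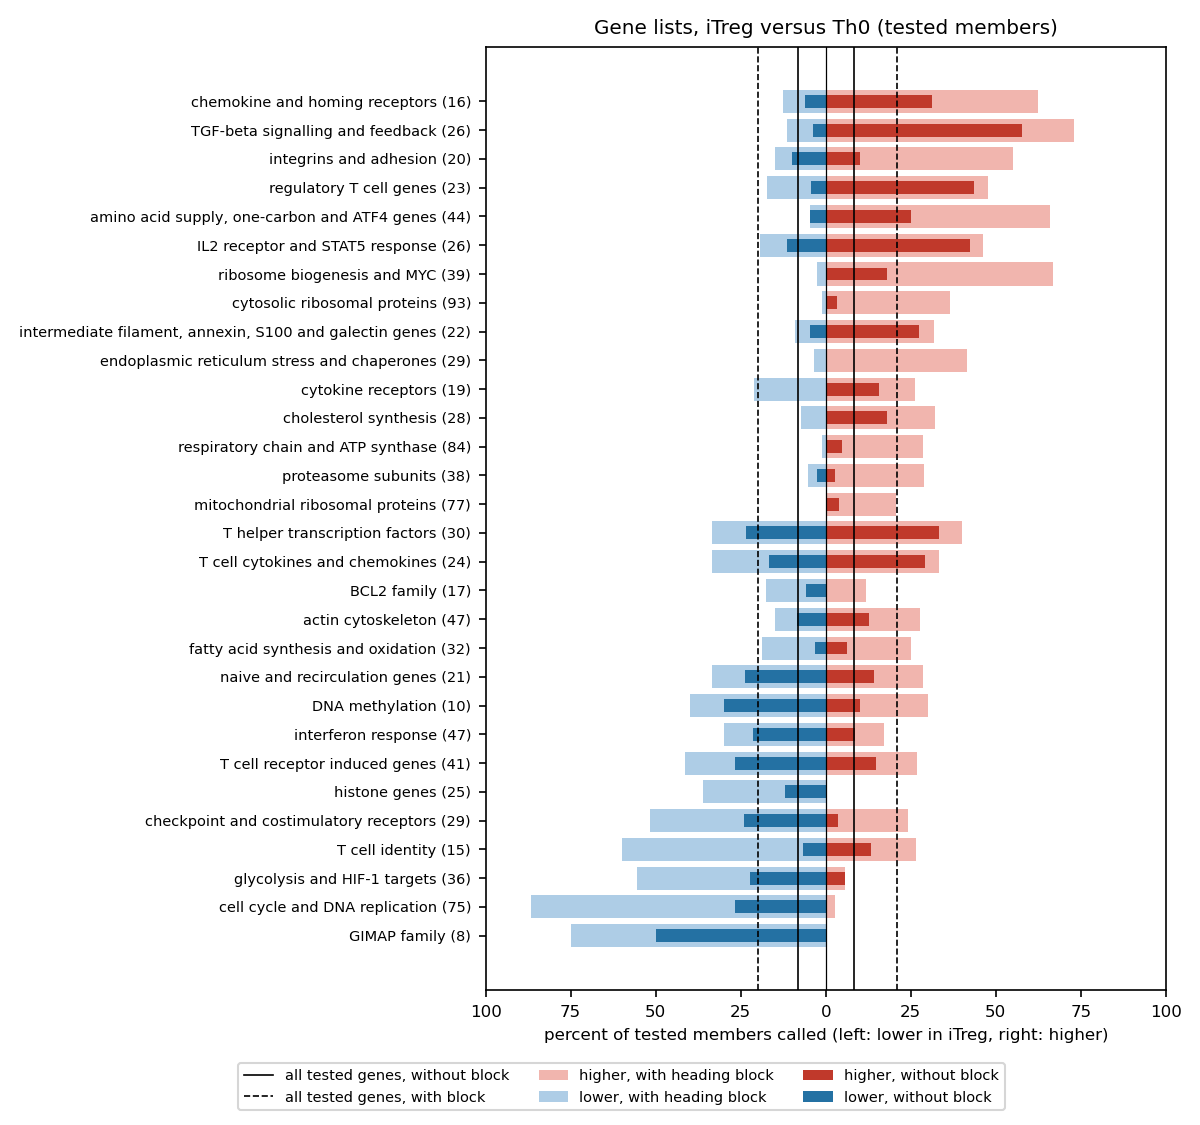
For each gene list with at least 8 tested members (number in brackets, y axis), bars give the percent of tested members called higher (right, red) or lower (left, blue) in iTreg cells, dark without and pale with the heading block. Lines mark the same percent over all tested genes (solid 8.36% higher and 8.21% lower without the block, dashed 20.9% and 20% with it), and lists are ordered by median log2FC, from chemokine and homing receptors at 0.86 to the GIMAP family at -0.74.

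More regulatory T cell genes rose than fell. Of 23 tested members 10 rose and 1 fell without the block, and 11 rose and 4 fell with it, with a median log2FC of 0.45 against 0.01 over all tested genes. Foxp3 (chrX:7573644-7595245, plus strand) was at 7.15, 6.84, 2.01, and 3.37 FPKM in Th0 and 91.7, 66.6, 62, and 80.5 FPKM in iTreg cells (log2FC 3.81 ± 0.32, adjusted p = 0.000131). All 4 iTreg libraries were far above the Th0 libraries. Overlapping gene models, Ccdc22 and Flicr among them, share 31.5% of its exonic bases. Nt5e, the CD73 ectoenzyme that makes adenosine (chr9:88327197-88372092, plus strand), was at 13.5, 23.2, 17.8, and 24.1 FPKM in Th0 and 193, 174, 167, and 259 FPKM in iTreg cells (log2FC 3.28 ± 0.21, adjusted p = 3.27e-05). Il2ra, the high-affinity chain of the IL2 receptor, was at 168, 79.96, 113, and 169.6 FPKM in Th0 and 478, 371, 337, and 583 FPKM in iTreg cells (log2FC 1.76 ± 0.27, adjusted p = 0.00298). The groups did not overlap for either gene. Ikzf4 (Eos), a transcription factor that works with Foxp3, rose (log2FC 2.42 ± 0.29, adjusted p = 0.000844), as did Itgae, the CD103 integrin chain (log2FC 2.57 ± 0.46, adjusted p = 0.00601). Itgae was at 0.548, 0.994, 0.327, and 0.185 FPKM in Th0 and 16.2, 13.5, 2.62, and 5.77 FPKM in iTreg cells, high in M22 and M29 and low in M42 and M43. Socs2, a suppressor of cytokine signalling, was at 24.1, 8.52, 12.6, and 14.5 FPKM in Th0 and 199, 160.03, 126, and 119 FPKM in iTreg cells (log2FC 3.31 ± 0.29, adjusted p = 0.000163). Not every hallmark gene was called. Ctla4 was at 38.4 ± 8.77 FPKM in Th0 and 52.9 ± 10.8 FPKM in iTreg cells and passed only with the block (log2FC 0.46 ± 0.21, adjusted p = 0.173, with the block 0.0171), and Tnfrsf18 (GITR) was at 207 ± 87.6 FPKM in Th0 and 159 ± 22.2 FPKM in iTreg cells and passed in neither (log2FC -0.28 ± 0.29, adjusted p = 0.573, with the block 0.242). Entpd1 (CD39) stayed under the limit for testing, at 0.0629, 0.421, 0, and 0.0252 FPKM in Th0 and 0.698, 0.916, 0.264, and 0.426 FPKM in iTreg libraries, and Il10 was not listed.

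**Figure D3:**
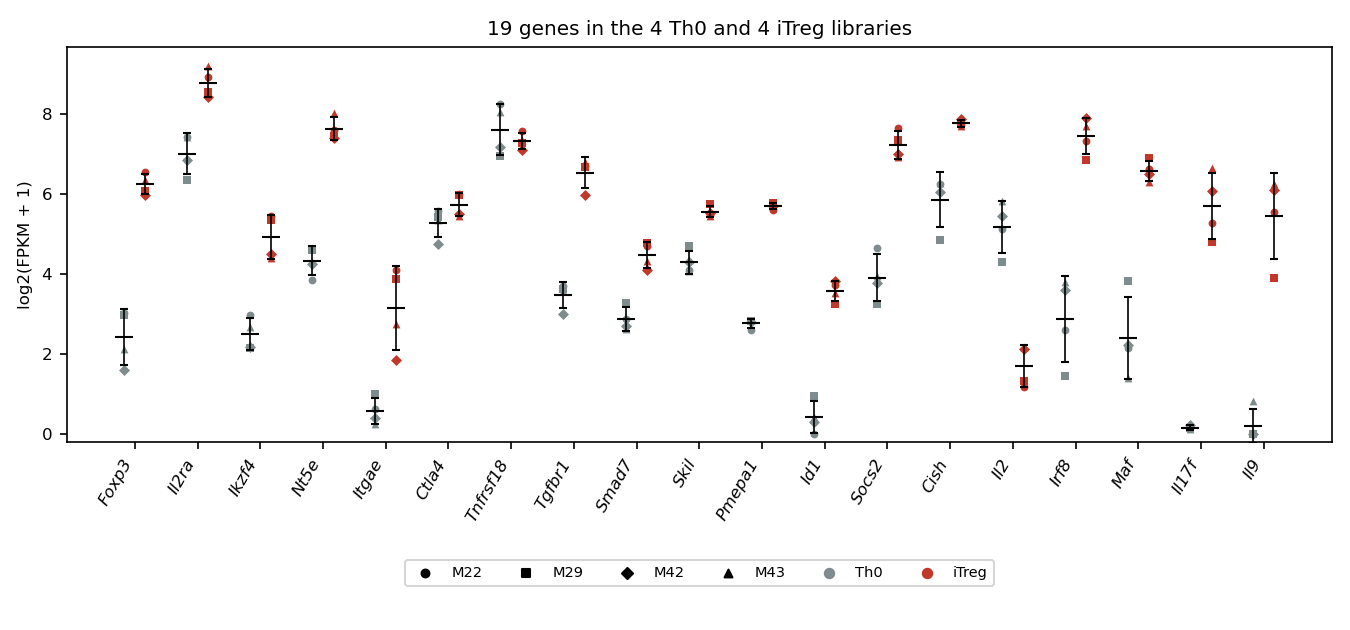
Values of 19 genes (x axis) as log2(FPKM + 1) (y axis) in each Th0 (grey) and iTreg (red) library, with the symbol giving the heading beginning and bars the mean ± SD of 4 libraries. Foxp3, Nt5e, Tgfbr1, Pmepa1, Socs2, Irf8, Maf, Il17f, and Il9 show no overlap between groups, while Ctla4 and Tnfrsf18 do overlap.

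Genes of the TGFβ pathway mostly rose. Of 26 tested members 15 rose and 1 fell without the block, and 19 rose and 3 fell with it, with a median log2FC of 0.77 and medians of 0.84, 0.68, 0.89, and 0.79 within the heading pairs M22, M29, M42, and M43. Among the receptors, Tgfbr1, the type I receptor kinase (chr4:47353222-47414931, plus strand), was at 11.9, 11.4, 7.03, and 11 FPKM in Th0 and 102, 100.1, 61.4, and 110.2 FPKM in iTreg cells (log2FC 3.05 ± 0.22, adjusted p = 5.57e-05). M42 was the lowest library in both groups, and the groups were far apart. Tgfbr2, the ligand-binding type II receptor, was at 32.5 ± 6.46 FPKM in Th0 and 46.1 ± 11 FPKM in iTreg cells and passed only with the block (log2FC 0.48 ± 0.21, adjusted p = 0.171, with the block 0.00346). Of the signal transducers, Smad3 rose from 5.78, 8.41, 6.0, and 6.74 FPKM to 12.5, 15.5, 12.2, and 12.9 FPKM (log2FC 0.89 ± 0.13, adjusted p = 0.00236). Inhibitors induced by the pathway itself were higher as well. Pmepa1, which sequesters receptor-activated Smads (chr2:173224458-173276533, minus strand), was at 5.07, 6.07, 5.94, and 6.24 FPKM in Th0 and 47.4, 53.8, 50.3, and 51.9 FPKM in iTreg cells (log2FC 2.93 ± 0.09, adjusted p = 1.56e-06). Smad7, the inhibitory Smad, was at 6.3, 8.73, 5.46, and 5.19 FPKM in Th0 and 25, 26.5, 16.2, and 18.9 FPKM in iTreg cells (log2FC 1.61 ± 0.19, adjusted p = 0.000862), and the co-repressor Skil at 16.1, 25, 18.5, and 15.7 FPKM in Th0 and 43.3, 52.6, 45, and 42.8 FPKM in iTreg cells (log2FC 1.26 ± 0.15, adjusted p = 0.000906). No library of one group reached the other in any of the 3. Id1, a target that blocks basic helix-loop-helix factors, was at 0, 0.946, 0.229, and 0.34 FPKM in Th0 and 12.2, 8.45, 13.1, and 10.5 FPKM in iTreg cells (log2FC 3.15 ± 0.21, adjusted p = 4.09e-05). Furin, the protease that processes the TGFβ precursor, was at 24, 22.2, 16.2, and 19 FPKM in Th0 and 139, 128, 74.6, and 118 FPKM in iTreg cells (log2FC 2.42 ± 0.21, adjusted p = 0.00015).

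Genes of the IL2 receptor and of the STAT5 response rose more often than they fell. Of 26 tested members 11 rose and 3 fell without the block, and 12 rose and 5 fell with it (median log2FC 0.42). IL2 and STAT5 genes called lower numbered 1 without Th0 M43 or iTreg M22, M29 or M42, against 3 with all libraries. Il2rb, the signalling β chain of the receptor, was at 91.4, 79.5, 63.7, and 98.3 FPKM in Th0 and 219, 205, 159.8, and 276 FPKM in iTreg cells (log2FC 1.35 ± 0.19, adjusted p = 0.00195). Cish, a feedback inhibitor induced by STAT5, was at 75, 27.9, 65.2, and 75.9 FPKM in Th0 and 207, 216, 232, and 206 FPKM in iTreg cells (log2FC 1.9 ± 0.29, adjusted p = 0.00296). Th0 M29 was low for Cish, and all iTreg values lay in a narrow range above Th0. Lta, which encodes lymphotoxin α, was at 50.5, 27.9, 39, and 84.8 FPKM in Th0 and 342, 213, 257, and 347 FPKM in iTreg cells (log2FC 2.58 ± 0.32, adjusted p = 0.000942). Gzmb, the cytotoxic protease granzyme B, is on the same list and fell, from 12.9, 4.64, 3.39, and 15.8 FPKM to 0.518, 0.357, 0.0783, and 0.631 FPKM (log2FC -2.66 ± 0.42, adjusted p = 0.00321). The anti-apoptotic Bcl2 was at 26.3 ± 1.52 FPKM in Th0 and 34.9 ± 10.1 FPKM in iTreg cells and passed in neither fit (log2FC 0.36 ± 0.18, adjusted p = 0.231, with the block 0.105). Ctsw, which encodes cathepsin W of cytotoxic cells, rose in contrast to Gzmb, with 20.5, 28.4, 7.02, and 7.04 FPKM in Th0 and 284, 274, 159.8, and 177 FPKM in iTreg cells (log2FC 3.94 ± 0.44, adjusted p = 0.000603), and Nkg7 was at 31.4 ± 22 FPKM in Th0 and 42.1 ± 12.7 FPKM in iTreg cells (log2FC 0.71 ± 0.58, adjusted p = 0.466, with the block 0.0907). The genes for CD8α and perforin were not listed. Among the BCL2 family, 0 rose and 1 fell without the block, and 2 rose and 3 fell with it of 17 tested, and the call without the block was Bcl2l11, which encodes the pro-apoptotic BIM (12.9 ± 1.63 FPKM in Th0 and 5.32 ± 1.5 FPKM in iTreg cells; log2FC -1.17 ± 0.19, adjusted p = 0.00368).

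Cytokine genes moved in both directions. Of 24 tested cytokines and chemokines 7 rose and 4 fell without the block, and 8 rose and 8 fell with it (median log2FC 0.09). Cytokine genes called lower numbered 1 without iTreg M22 and 2 without Th0 M22 or M43, against 4 with all libraries. Beside Il17f and Il9, Lta was higher, and Xcl1, a chemokine for cross-presenting dendritic cells, was at 7.1, 1.76, 12.3, and 46 FPKM in Th0 and 61.9, 50.4, 106, and 333 FPKM in iTreg cells (log2FC 3.25 ± 0.87, adjusted p = 0.0344). Its spread within groups was wide. The call of Xcl1 (without Th0 M22, M29 or M42 or iTreg M22, M42 or M43, adjusted p up to 0.0886) ended with 1 library left out. Il2 fell, as described. Tnf was at 31.9 ± 11.7 FPKM in Th0 and 35.6 ± 9.38 FPKM in iTreg cells (log2FC 0.19 ± 0.28, adjusted p = 0.721, with the block 0.111). The Th1 cytokine gene Ifng was at 0.874, 0.523, 0.796, and 2.28 FPKM in Th0 and 0.835, 2.60, 0.368, and 0.833 FPKM in iTreg libraries and was not tested, and Il4 and Il13 of Th2 cells were not listed. Of 19 tested cytokine receptors, 3 rose and 0 fell without the block, and 5 rose and 4 fell with it. Receptor genes called higher numbered 5 without iTreg M42, against 3 with all libraries. With the block, receptor genes called lower numbered 2 without the pair M43, against 4. Those called without the block were both chains of the IL18 receptor, Il18r1 (log2FC 1.6 ± 0.39, adjusted p = 0.0245) and Il18rap (log2FC 1.32 ± 0.17, adjusted p = 0.00118), and the interferon γ receptor chain Ifngr2 (log2FC 1.17 ± 0.16, adjusted p = 0.00147). The call of Il18r1 (without Th0 M42 or M43 or iTreg M22, M29 or M43, adjusted p up to 0.0603) ended with 1 library left out. The IL6 receptor chains Il6ra (32.9 ± 15 FPKM in Th0 and 44.7 ± 10.2 FPKM in iTreg cells) and Il6st (24.5 ± 12.9 FPKM in Th0 and 21.3 ± 6.22 FPKM in iTreg cells), Il7r (4.57 ± 1.62 FPKM in Th0 and 6.69 ± 1.73 FPKM in iTreg cells), and Il12rb2 (2.18 ± 1.18 FPKM in Th0 and 1.84 ± 0.457 FPKM in iTreg cells) passed in neither fit, with adjusted p of 0.33, 0.893, 0.201, and 0.849 without the block.

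Among T helper transcription factors, 10 rose and 7 fell without the block, and 12 rose and 10 fell with it of 30 tested (median log2FC 0.11). Transcription factors called lower numbered 3 without iTreg M43 and 4 without Th0 M29 or M43 or iTreg M22 or M42, against 7 with all libraries. With the block, transcription factors called lower numbered 6 without the pair M43, against 10. Maf, known for its role in IL10 and IL21 expression (chr8:115682942-115707794, minus strand), was at 3.41, 13.1, 3.7, and 1.66 FPKM in Th0 and 97.8, 117, 89.6, and 77.3 FPKM in iTreg cells (log2FC 4.18 ± 0.44, adjusted p = 0.000412). Th0 M29 was the highest Th0 library for Maf and still far below the iTreg libraries. Irf8 and Ikzf4 are on this list as well. Satb1, a chromatin organizer of thymocytes and T cells, fell from 54.5, 49.4, 36.8, and 39.6 FPKM to 23.9, 32.8, 14.4, and 16.9 FPKM (log2FC -1.05 ± 0.25, adjusted p = 0.0209). The call of Satb1 (without Th0 M22 or M29 or iTreg M43, adjusted p up to 0.0621) ended with 1 library left out. The master factor of Th2 cells, Gata3, was at 12.1 ± 2.86 FPKM in Th0 and 8.76 ± 1.3 FPKM in iTreg cells (log2FC -0.41 ± 0.17, adjusted p = 0.145, with the block 0.0345), and Tcf7 (TCF1) at 186 ± 67.1 FPKM in Th0 and 142 ± 24.8 FPKM in iTreg cells (log2FC -0.34 ± 0.24, adjusted p = 0.391, with the block 0.0382), and both passed only with the block. Runx3 was at 6.4 ± 1.62 FPKM in Th0 and 5.66 ± 0.858 FPKM in iTreg cells (log2FC -0.14 ± 0.16, adjusted p = 0.645, with the block 0.219). Tbx21, the T-bet of Th1 cells, was not tested, at 0.724, 0.445, 1.05, and 0.912 FPKM in Th0 and 0.933, 1.78, 0.782, and 0.525 FPKM in iTreg libraries.

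Homing receptors rose more often than they fell. Of 16 tested chemokine and homing receptors 5 rose and 1 fell without the block, and 10 rose and 2 fell with it (median log2FC 0.86, with 0.90, 0.91, 0.86, and 0.75 within the heading pairs). Ccr8 rose most, as given above. Ccr6, the receptor for CCL20, was at 0.254, 1.27, 0.462, and 0.916 FPKM in Th0 and 24.3, 11.4, 17.8, and 27.8 FPKM in iTreg cells (log2FC 3.59 ± 0.28, adjusted p = 0.000101), and Cxcr6 at 1.95, 2.53, 2.26, and 2.24 FPKM in Th0 and 10.02, 9.2, 16.6, and 20.01 FPKM in iTreg cells (log2FC 2.14 ± 0.23, adjusted p = 0.000439). Both were low in Th0 cells and higher in every iTreg library. Gpr183 (EBI2), which positions lymphocytes in lymphoid organs, fell (15.3 ± 5.24 FPKM in Th0 and 3.52 ± 1.61 FPKM in iTreg cells; log2FC -1.87 ± 0.30, adjusted p = 0.00363). Ccr4 (log2FC 1.02 ± 0.40, adjusted p = 0.128, with the block 0.0101) and Cxcr3 (log2FC 1.34 ± 0.43, adjusted p = 0.066, with the block 0.000816) passed only with the block. Genes of naive and recirculating T cells did not move together: of 21 tested, 3 rose and 5 fell without the block, and 6 rose and 7 fell with it. Naive cell genes called lower numbered 1 without Th0 M22 or M43, 2 without iTreg M22 or M43, and 3 without Th0 M29 or iTreg M42, against 5 with all libraries. With the block, naive cell genes called lower numbered 4 without the pair M43, against 7. The lymph node homing genes Ccr7 (261 ± 107 FPKM in Th0 and 248 ± 91.9 FPKM in iTreg cells) and Klf2 (25.4 ± 15.4 FPKM in Th0 and 28.7 ± 21.6 FPKM in iTreg cells) passed in neither fit, with adjusted p of 0.97 and 0.96 without the block. S1pr1, the egress receptor, passed only with the block (log2FC 0.90 ± 0.46, adjusted p = 0.232, with the block 0.000629). Atp1b1, a sodium pump subunit (20.3 ± 10.9 FPKM in Th0 and 124 ± 53.3 FPKM in iTreg cells; log2FC 2.61 ± 0.44, adjusted p = 0.00465), and the growth factor binding protein Igfbp4 (44.1 ± 14 FPKM in Th0 and 228 ± 53.1 FPKM in iTreg cells; log2FC 2.36 ± 0.25, adjusted p = 0.00046) rose, and Dapl1 (28.5 ± 11.1 FPKM in Th0 and 6.25 ± 6.26 FPKM in iTreg cells; log2FC -2.34 ± 0.56, adjusted p = 0.0224) and the costimulatory receptor Cd27 (89.1 ± 36.2 FPKM in Th0 and 36 ± 10.8 FPKM in iTreg cells; log2FC -1.23 ± 0.35, adjusted p = 0.042) fell. The calls of Dapl1 (without Th0 M42 or M43 or iTreg M22, adjusted p up to 0.064) and Cd27 (without Th0 M22, M29 or M43 or iTreg M22, M42 or M43, adjusted p up to 0.111) ended with 1 library left out.

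Of 20 tested integrins and adhesion molecules, 2 rose and 2 fell without the block, and 11 rose and 3 fell with it (median log2FC 0.46). Without the block both counts were near the shares of all tested genes, 8.36% higher and 8.21% lower. With it 20.9% of all tested genes rose and 20% fell. Adhesion genes called higher numbered 1 without Th0 M22, M29 or M42 or iTreg M22 or M43 and 4 without iTreg M42, against 2 with all libraries. Those called lower numbered 0 without Th0 M22, M29 or M43 or iTreg M42 and 1 without iTreg M22 or M43, against 2 with all libraries. Itgav, which pairs with β chains that activate latent TGFβ, was at 7.31, 7.82, 3.57, and 8.74 FPKM in Th0 and 16.3, 15.3, 7.61, and 18 FPKM in iTreg cells, with overlap between groups, and Itgb1 at 27.9 ± 10.2 FPKM in Th0 and 39.99 ± 17.6 FPKM in iTreg cells. Both passed only with the block (Itgav adjusted p = 0.0677 and 0.000119, Itgb1 0.479 and 0.00376). Itgb7, the partner of CD103, was at 43.3 ± 17.6 FPKM in Th0 and 46.5 ± 16.2 FPKM in iTreg cells (log2FC 0.13 ± 0.41, adjusted p = 0.87, with the block 0.275). The integrin chains Itga4 (4.19 ± 1.14 FPKM in Th0 and 1.84 ± 0.571 FPKM in iTreg cells) and Itgb3 (3.67 ± 1.59 FPKM in Th0 and 0.97 ± 0.756 FPKM in iTreg cells) fell, and Cd47, the ligand of SIRPα, rose (70.8 ± 16.7 FPKM in Th0 and 112 ± 16 FPKM in iTreg cells). The calls of Itga4 (without Th0 M22, M29 or M43 or iTreg M42, adjusted p up to 0.075), Itgb3 (without Th0 M22, M29 or M43 or iTreg M22, M42 or M43, adjusted p up to 0.10), and Cd47 (without Th0 M22, M29 or M42 or iTreg M22 or M43, adjusted p up to 0.086) ended with 1 library left out.

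Vim, which encodes the intermediate filament protein vimentin (chr2:13573927-13582826, plus strand), was at 196, 76.1, 259, and 295 FPKM in Th0 and 917, 579.9, 1119, and 1053 FPKM in iTreg cells (log2FC 2.27 ± 0.41, adjusted p = 0.0066). M29 was the lowest library in both groups, which did not overlap. Of 22 tested intermediate filament, annexin, S100, and galectin genes, 6 rose and 1 fell without the block, and 7 rose and 2 fell with it. With the block, genes of this list called higher numbered 11 without the pair M29, against 7. The nuclear lamina gene Lmna (1.39 ± 0.555 FPKM in Th0 and 9.71 ± 4.33 FPKM in iTreg cells; log2FC 2.1 ± 0.30, adjusted p = 0.00215), the galectins Lgals1 (179 ± 47.2 FPKM in Th0 and 477 ± 172 FPKM in iTreg cells; log2FC 1.37 ± 0.31, adjusted p = 0.0169) and Lgals3 (15.5 ± 5.5 FPKM in Th0 and 90.8 ± 31.2 FPKM in iTreg cells; log2FC 2.48 ± 0.28, adjusted p = 0.000595), and the annexin Anxa3 (0.50 ± 0.346 FPKM in Th0 and 5.08 ± 1.78 FPKM in iTreg cells; log2FC 1.99 ± 0.27, adjusted p = 0.00151) rose. Anxa2 fell (49.2 ± 11.6 FPKM in Th0 and 25.4 ± 5.57 FPKM in iTreg cells; log2FC -0.92 ± 0.21, adjusted p = 0.0196). The call of Anxa2 (without Th0 M22 or M43, adjusted p up to 0.0573) ended with 1 library left out. S100a4 was at 2.38 ± 2.65 FPKM in Th0 and 4.82 ± 1.26 FPKM in iTreg cells (log2FC 1.03 ± 0.42, adjusted p = 0.14, with the block 0.0845). Actin cytoskeleton genes did not move as a group: of 47 tested, 6 rose and 4 fell without the block, and 13 rose and 7 fell with it (median log2FC 0.04). Actin genes called lower numbered 1 without Th0 M22, against 4 with all libraries. Actb was at 1604 ± 369 FPKM in Th0 and 1646 ± 378 FPKM in iTreg cells (log2FC 0.04 ± 0.21, adjusted p = 0.936, with the block 0.668), with the sign of its log2FC reversed on scaling by the upper quartile. The actin filament capping gene Capg, which is also on the regulatory T cell list, was at 162, 163, 225, and 206 FPKM in Th0 and 550.2, 555, 754, and 667 FPKM in iTreg cells (log2FC 1.74 ± 0.15, adjusted p = 0.000179). Marcks rose (log2FC 1.26 ± 0.26, adjusted p = 0.0129), while the actin regulators Evl (log2FC -1.32 ± 0.30, adjusted p = 0.0189) and Actn1 (log2FC -1.02 ± 0.23, adjusted p = 0.0193) fell. The calls of Evl (without Th0 M22 or iTreg M43, adjusted p up to 0.0544) and Actn1 (without Th0 M22, adjusted p up to 0.0547) ended with 1 library left out. Zyx (log2FC 0.32 ± 0.13, adjusted p = 0.129, with the block 0.0623) and Fscn1 (log2FC 0.65 ± 0.35, adjusted p = 0.258, with the block 0.167) passed in neither fit.

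Checkpoint and costimulatory receptors fell more often than they rose. Of 29 tested 1 rose and 7 fell without the block, and 7 rose and 15 fell with it (median log2FC -0.35). Checkpoint genes called lower numbered 4 without Th0 M43 or iTreg M22, against 7 with all libraries. Btla, an inhibitory receptor, was at 202, 162, 141, and 178 FPKM in Th0 and 39.2, 23.8, 36.4, and 53.5 FPKM in iTreg cells (log2FC -2.17 ± 0.23, adjusted p = 0.000393), with every iTreg library below every Th0 library. Slamf6 fell as given above, and Cd160 fell as well (9.49 ± 5.33 FPKM in Th0 and 2.1 ± 1.26 FPKM in iTreg cells; log2FC -1.67 ± 0.41, adjusted p = 0.0248). The call of Cd160 (without Th0 M22 or M43 or iTreg M22, M29 or M42, adjusted p up to 0.0709) ended with 1 library left out. Tnfrsf25 (DR3) was the exception among the calls without the block and rose, with 8.51 ± 1.55 FPKM in Th0 and 37.5 ± 17 FPKM in iTreg cells (log2FC 1.92 ± 0.30, adjusted p = 0.0034). Lag3 was at 98.6, 135, 23.6, and 40.5 FPKM in Th0 and 49.7, 61.5, 15.8, and 28.8 FPKM in iTreg cells. Its groups overlapped, since M22 and M29 were high and M42 and M43 low in both groups, and it passed only with the block (log2FC -0.78 ± 0.59, adjusted p = 0.435, with the block 0.00307). Pdcd1 (PD-1; 105 ± 27.8 FPKM in Th0 and 159.8 ± 45.3 FPKM in iTreg cells; log2FC 0.60 ± 0.23, adjusted p = 0.111, with the block 0.00143) and Icos (42 ± 14.1 FPKM in Th0 and 33.9 ± 15 FPKM in iTreg cells; log2FC -0.36 ± 0.41, adjusted p = 0.624, with the block 0.0291) also passed only with the block, Pdcd1 higher and Icos lower. Tnfrsf4 (OX40) was at 205 ± 64.4 FPKM in Th0 and 190.02 ± 21.5 FPKM in iTreg cells (log2FC -0.06 ± 0.22, adjusted p = 0.885, with the block 0.763).

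With all libraries, genes induced by the T cell receptor fell more often than they rose. Of 41 tested 6 rose and 11 fell without the block, and 11 rose and 17 fell with it (median log2FC -0.15). T cell receptor induced genes called lower numbered 5 without Th0 M22 or iTreg M22, 6 without Th0 M43, and 7 without iTreg M43, against 11 with all libraries. Those called higher numbered 5 without Th0 M22 or iTreg M43 and 6 without iTreg M22 or Th0 M43. Falls thus did not outnumber rises without Th0 M22, iTreg M22 or Th0 M43. Egr1, an immediate early transcription factor, was at 80.9, 115, 121, and 90.9 FPKM in Th0 and 43.9, 58.4, 51.2, and 44.1 FPKM in iTreg cells (log2FC -1.02 ± 0.16, adjusted p = 0.00302), and Egr3 at 51.8, 58.5, 79.5, and 61.3 FPKM in Th0 and 19.1, 22.8, 24, and 22.9 FPKM in iTreg cells (log2FC -1.45 ± 0.14, adjusted p = 0.000298). Fos was low and fell further (5.63 ± 1.91 FPKM in Th0 and 1.12 ± 0.53 FPKM in iTreg cells; log2FC -1.63 ± 0.24, adjusted p = 0.00265). Jun, its partner in AP-1, rose instead, with 8.2, 2.18, 2.55, and 4.62 FPKM in Th0 and 36.3, 24.7, 24, and 24.7 FPKM in iTreg cells (log2FC 2.51 ± 0.32, adjusted p = 0.00117), and iTreg M22 was the highest library. The phosphatase gene Dusp4 rose too (49.9 ± 16.7 FPKM in Th0 and 126 ± 23.7 FPKM in iTreg cells; log2FC 1.37 ± 0.25, adjusted p = 0.00674). The early activation marker Cd69 fell (75.8 ± 12.2 FPKM in Th0 and 44.5 ± 9.79 FPKM in iTreg cells; log2FC -0.77 ± 0.18, adjusted p = 0.0215). The call of Cd69 (without Th0 M22, M29 or M43 or iTreg M22, adjusted p up to 0.0625) ended with 1 library left out. Egr2 passed only with the block (log2FC -0.36 ± 0.16, adjusted p = 0.167, with the block 0.011), and Nr4a1, which encodes NUR77, in neither (145 ± 35.3 FPKM in Th0 and 101 ± 18.5 FPKM in iTreg cells; log2FC -0.50 ± 0.20, adjusted p = 0.132, with the block 0.106). Of 15 tested T cell identity genes 2 rose and 1 fell without the block, and 4 rose and 9 fell with it (median log2FC -0.36). Identity genes called lower numbered 0 without Th0 M22 or M43 or iTreg M42 or M43 and 3 without Th0 M42, against 1 with all libraries. Those that rose without the block were Cd2 (log2FC 1.1 ± 0.23, adjusted p = 0.0121) and Lat (log2FC 0.63 ± 0.12, adjusted p = 0.00733), while Cd3e (log2FC -0.46 ± 0.22, adjusted p = 0.194, with the block 0.00458) and Lck (log2FC 0.32 ± 0.12, adjusted p = 0.103, with the block 0.0145) were among those that passed only with the block. Cd4 passed in neither fit (log2FC -0.32 ± 0.44, adjusted p = 0.683, with the block 0.0821).

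Interferon response genes had more falls than rises, and the medians of the heading pairs differed in sign. Of 47 tested 4 rose and 10 fell without the block, and 8 rose and 14 fell with it (median log2FC -0.07, with 0.13, 0.54, -0.39, and -0.44 within the heading pairs). Over all tested genes 8.36% rose and 8.21% fell without the block, and 20.9% rose and 20% fell with it. The rises were thus near the share of all tested genes without the block and not above it with the block. Interferon genes called lower numbered 5 without Th0 M22, against 10 with all libraries. With the block, interferon genes called higher numbered 4 without the pair M42 and 5 without the pair M22, against 8. Ifih1, which encodes the RNA sensor MDA5, fell from 7.36, 6.24, 10.7, and 9.57 FPKM to 0.929, 2.38, 1.23, and 1.36 FPKM (log2FC -1.94 ± 0.21, adjusted p = 0.000439), and Ifi27l2a from 67.8, 79.6, 78.7, and 60.9 FPKM to 19, 22.8, 26.5, and 16.3 FPKM (log2FC -1.73 ± 0.16, adjusted p = 0.000229). The guanylate-binding protein genes Gbp9 (log2FC -2.0 ± 0.36, adjusted p = 0.00642) and Gbp8 (log2FC -1.83 ± 0.41, adjusted p = 0.0178) fell, and Gbp2 was at 39.8, 18.9, 55.4, and 64 FPKM in Th0 and 10.4, 33.1, 3.52, and 6.46 FPKM in iTreg cells and passed in neither fit (log2FC -1.95 ± 0.61, adjusted p = 0.0611, with the block 0.0544). Gbp2 was higher in iTreg than in Th0 cells in M29 and lower in the other pairs. Reads may have been split among these near-identical Gbp genes. The call of Gbp8 (without Th0 M22 or iTreg M22, adjusted p up to 0.0544) ended with 1 library left out. Irf1, Tap1, and Igtp, targets of interferon γ, passed in neither fit, with log2FC 0.12 ± 0.56, 0.16 ± 0.37, and 0.85 ± 0.39 and adjusted p of 0.922, 0.824, and 0.184.

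Cell cycle and DNA replication genes mostly fell with the block. Of 75 tested members 0 rose and 20 fell without the block, and 2 rose and 65 fell with it (median log2FC -0.66). Within the heading pairs the median was -0.68, -0.87, -0.62, and -0.44, and 65 members were lower in all 4 pairs. Cell cycle genes called lower numbered 6 without Th0 M42, 7 without Th0 M22 or M43, and 8 without iTreg M22, against 20 with all libraries. Pcna, the sliding clamp of DNA polymerases, was at 583, 489, 699, and 578 FPKM in Th0 and 358, 289, 447, and 379.7 FPKM in iTreg cells (log2FC -0.68 ± 0.16, adjusted p = 0.0198). Stmn1, a regulator of microtubules in mitosis, was at 508, 362, 543, and 472 FPKM in Th0 and 248, 123, 277, and 265 FPKM in iTreg cells (log2FC -1.1 ± 0.26, adjusted p = 0.0226). The M29 iTreg library was the lowest for both genes. Lig1, the ligase of replicating DNA, fell as well (71.6 ± 7.4 FPKM in Th0 and 36.5 ± 10.1 FPKM in iTreg cells; log2FC -1.0 ± 0.21, adjusted p = 0.013), as did Uhrf1, which guides maintenance DNA methylation (log2FC -0.95 ± 0.28, adjusted p = 0.0489), and the inhibitor Cdkn2c (log2FC -1.04 ± 0.27, adjusted p = 0.0309). The calls of Pcna (without Th0 M22 or iTreg M22, adjusted p up to 0.056), Stmn1 (without Th0 M22, M42 or M43, adjusted p up to 0.0631), Uhrf1 (without Th0 M22, M42 or M43 or iTreg M22 or M42, adjusted p up to 0.112), and Cdkn2c (without Th0 M22, M42 or M43 or iTreg M22, M29 or M43, adjusted p up to 0.0836) ended with 1 library left out. Mki67, which encodes the Ki-67 antigen of dividing cells, was at 67.7, 31.2, 54.5, and 77 FPKM in Th0 and 34.6, 12.6, 29.3, and 53.1 FPKM in iTreg cells. Its groups overlapped, it was lower in iTreg cells in all 4 pairs, and it passed only with the block (log2FC -0.90 ± 0.43, adjusted p = 0.195, with the block 0.00145). Ccnb1, the mitotic cyclin, followed the same pattern (35.1, 10.4, 53.4, and 43.3 FPKM in Th0 and 21.6, 9.22, 38.8, and 35.2 FPKM in iTreg cells; log2FC -0.39 ± 0.56, adjusted p = 0.704, with the block 0.0174). Cdkn1a, which encodes the cell cycle inhibitor p21, was 1 of the 2 genes that rose with the block, at 132, 50.7, 203, and 206 FPKM in Th0 and 215, 171, 328, and 274 FPKM in iTreg cells (log2FC 0.88 ± 0.43, adjusted p = 0.21, with the block 0.0144).

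Promoters of cell cycle genes are shown because these genes moved together. Among the 61 members with a RefSeq promoter (GRCm38.p6), 9 (14.8%) held an E2F-type motif in the 250 bases before a start site. The motif was TTTCCCGC or TTTGGCGC on either strand. It was held by 1.51% of 27025 genes with a promoter and by 3.22% of the 7824 tested genes with one. A gene with more than 1 promoter counted if any of them matched, and the first matching promoter of a gene is the one shown. E2F factors control replication genes, and the list was chosen to hold such genes. Its motif share therefore follows from that choice and is no result of these data. A match of letters is no evidence of binding in these cells. Of these 9 genes 4 were called lower without the block and 7 with it. The 3 called ones of largest fold change, chosen after their values were seen, are shown from 5′ to 3′ on the strand of the gene. Capitals mark the motif as it reads on that strand, here the reverse complements GCGGGAAA and GCGCCAAA. They are E2f7, a repressor of the E2F family (chr10:110745189-110745438 (plus strand); log2FC -0.87 ± 0.20, adjusted p = 0.0175), and the helicase subunits Mcm5 (chr8:75109259-75109508 (plus strand); log2FC -0.70 ± 0.18, adjusted p = 0.0314) and Mcm7 (chr5:138171884-138172133 (minus strand); log2FC -0.66 ± 0.15, adjusted p = 0.0201). The calls of Mcm5 (without Th0 M22, M42 or M43 or iTreg M22, adjusted p up to 0.0861) and Mcm7 (without Th0 M42 or M43 or iTreg M22, adjusted p up to 0.056) ended with 1 library left out.
E2f7: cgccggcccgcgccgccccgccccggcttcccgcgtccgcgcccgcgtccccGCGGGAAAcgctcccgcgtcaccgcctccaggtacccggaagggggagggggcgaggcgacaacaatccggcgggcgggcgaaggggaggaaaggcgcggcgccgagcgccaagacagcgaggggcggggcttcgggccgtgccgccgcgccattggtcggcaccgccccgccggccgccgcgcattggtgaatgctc
Mcm5: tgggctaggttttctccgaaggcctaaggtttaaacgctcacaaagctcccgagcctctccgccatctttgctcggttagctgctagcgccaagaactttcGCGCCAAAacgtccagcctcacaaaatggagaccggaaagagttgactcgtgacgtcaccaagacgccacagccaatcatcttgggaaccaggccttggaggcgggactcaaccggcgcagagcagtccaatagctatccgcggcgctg
Mcm7: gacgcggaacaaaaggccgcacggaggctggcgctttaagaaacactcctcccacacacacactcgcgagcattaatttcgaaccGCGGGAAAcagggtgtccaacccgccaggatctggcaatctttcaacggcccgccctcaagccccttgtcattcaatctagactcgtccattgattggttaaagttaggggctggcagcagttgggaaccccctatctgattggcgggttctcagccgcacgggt
The far end of the match lies 198 bases before the start site in E2f7, 149 bases in Mcm5, and 165 bases in Mcm7. Mcm5 itself was at 124, 114, 140.2, and 135 FPKM in Th0 and 72.3, 56.2, 94.1, and 99.5 FPKM in iTreg cells.

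**Figure D4:**
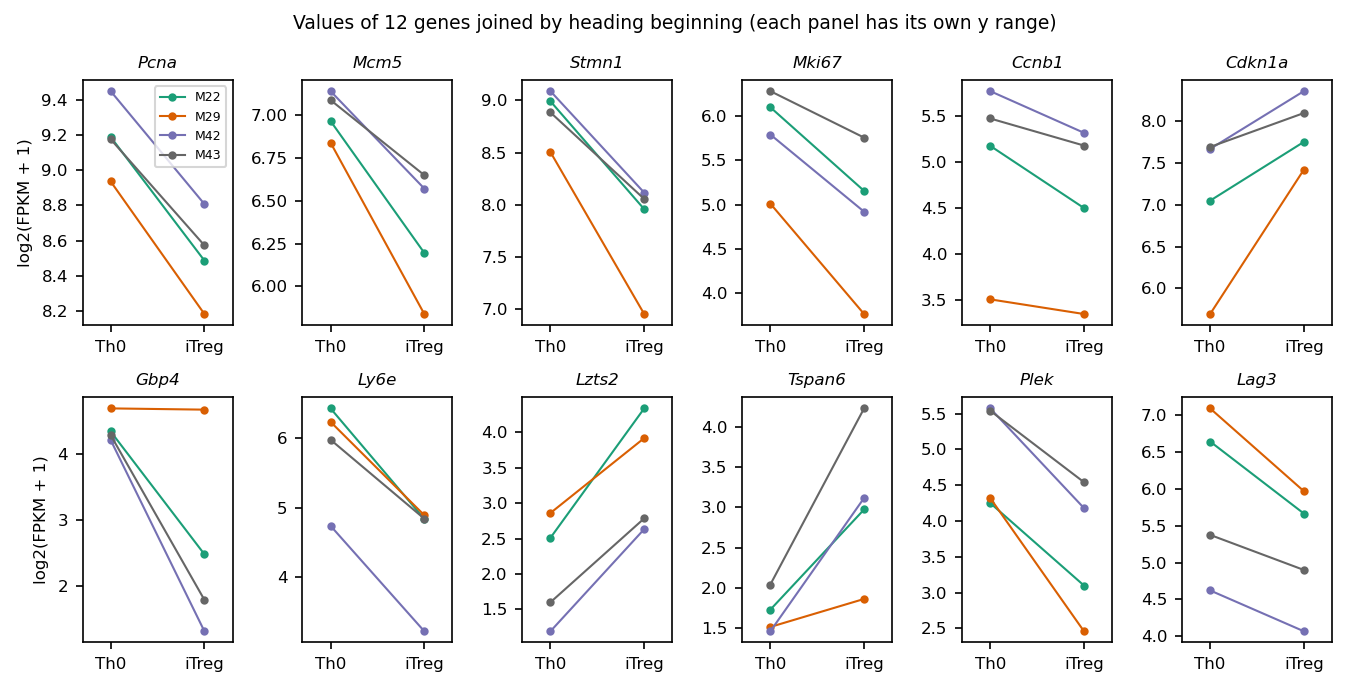
Values of 12 genes as log2(FPKM + 1) (y axis, a range of its own in each panel) in Th0 and iTreg libraries (x axis), joined by heading beginning. The 4 lines fall in Pcna, Mcm5, Stmn1, Mki67, Ccnb1, Gbp4, Ly6e, Plek, and Lag3 and rise in Cdkn1a, Lzts2, and Tspan6, although the groups overlap for all of them except Pcna, Mcm5, and Stmn1. For Gbp4, Ly6e, Plek, Lzts2, and Tspan6 the naming rule required the same direction in all 4 pairs.

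Histone genes, most of which are transcribed during replication, had falls and no increases: of 25 tested, 0 rose and 3 fell without the block, and 0 rose and 9 fell with it (median log2FC -0.29). Over all tested genes 8.36% rose and 8.21% fell without the block, and 20.9% rose and 20% fell with it. Without the block the falls were thus near the share of all tested genes. Histone genes called lower numbered 1 without Th0 M22, M42 or M43, against 3 with all libraries. H2afv, a variant histone outside the replication-dependent clusters, was at 50.8 ± 4.98 FPKM in Th0 and 25.2 ± 3.84 FPKM in iTreg cells (log2FC -0.99 ± 0.13, adjusted p = 0.00128). The clustered genes Hist1h2ai (log2FC -0.88 ± 0.22, adjusted p = 0.0266) and Hist1h3a (log2FC -0.88 ± 0.24, adjusted p = 0.035) are low and have near-identical copies, so their values are uncertain. The calls of Hist1h2ai (without Th0 M22, M42 or M43 or iTreg M22 or M29, adjusted p up to 0.0758) and Hist1h3a (without Th0 M22, M42 or M43 or iTreg M42, adjusted p up to 0.0913) ended with 1 library left out. Of 10 tested DNA methylation genes, 1 rose and 3 fell without the block, and 3 rose and 4 fell with it. DNA methylation genes called lower numbered 1 without Th0 M42 or M43 or iTreg M22 or M42, against 3 with all libraries. Those called higher numbered 0 without Th0 M42 or M43 or iTreg M22 or M29 and 2 without iTreg M43, against 1 with all libraries. The de novo methyltransferase genes moved in opposite directions, Dnmt3a from 23.5, 17.8, 25.2, and 28.5 FPKM to 13.5, 13.7, 14.2, and 15.8 FPKM (log2FC -0.67 ± 0.14, adjusted p = 0.0134) and the lower Dnmt3b from 3.48, 4.58, 3.9, and 3.89 FPKM to 5.86, 5.73, 5.2, and 5.32 FPKM (log2FC 0.40 ± 0.10, adjusted p = 0.0237). Among the demethylases, Tet3 was lower (log2FC -0.38 ± 0.11, adjusted p = 0.0409) and Tet2 passed only with the block (log2FC 0.40 ± 0.14, adjusted p = 0.0769, with the block 0.0107). The calls of Dnmt3b (without Th0 M22, M42 or M43 or iTreg M22 or M29, adjusted p up to 0.0713) and Tet3 (without Th0 M29, M42 or M43 or iTreg M22, M42 or M43, adjusted p up to 0.102) ended with 1 library left out.

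With all libraries, glycolysis genes and HIF-1 targets fell more often than they rose. Of 36 tested 2 rose and 8 fell without the block, and 2 rose and 20 fell with it (median log2FC -0.39). Within the heading pairs the median was -0.38, -0.04, -0.44, and -0.50, closest to 0 in M29. Glycolysis and HIF-1 genes called lower numbered 2 without iTreg M22, 3 without Th0 M42 or M43 or iTreg M42, and 5 without iTreg M29 or M43, against 8 with all libraries. Those called higher numbered 2 in each of these fits, so falls did not outnumber rises without iTreg M22. With the block, glycolysis genes called lower numbered 13 without the pair M42 or M43, against 20. The glucose transporter gene Slc2a1 (37.4 ± 15.3 FPKM in Th0 and 39.6 ± 14.9 FPKM in iTreg cells), Hk2 (10.5 ± 4.77 FPKM in Th0 and 6.78 ± 1.37 FPKM in iTreg cells), Eno3 (22.7 ± 2.8 FPKM in Th0 and 24.5 ± 6.6 FPKM in iTreg cells), and Ldha (655 ± 272 FPKM in Th0 and 765 ± 219.99 FPKM in iTreg cells) passed in neither fit, with adjusted p of 0.908, 0.366, 0.812, and 0.634 without the block. Slc2a3, the second glucose transporter of T cells (13 ± 6.71 FPKM in Th0 and 5.38 ± 1.91 FPKM in iTreg cells; log2FC -1.08 ± 0.31, adjusted p = 0.0482), and Ankrd37 (7.88 ± 2.04 FPKM in Th0 and 4.17 ± 1.23 FPKM in iTreg cells; log2FC -0.78 ± 0.23, adjusted p = 0.0494) fell. The calls of Slc2a3 (without Th0 M22, M42 or M43 or iTreg M22, M29 or M42, adjusted p up to 0.123) and Ankrd37 (without Th0 M22, M42 or M43 or iTreg M22, M29, M42 or M43, adjusted p up to 0.12) ended with 1 library left out. Egln3, the oxygen-sensing prolyl hydroxylase PHD3, rose against the list, with 13.3, 6.42, 20.3, and 19.3 FPKM in Th0 and 89.3, 69.8, 127, and 102 FPKM in iTreg cells (log2FC 2.71 ± 0.34, adjusted p = 0.00097), and so did Mxi1, a MYC antagonist (3.55 ± 0.54 FPKM in Th0 and 6.77 ± 1.47 FPKM in iTreg cells; log2FC 0.76 ± 0.16, adjusted p = 0.0126).

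Few genes of the respiratory chain and ATP synthase passed without the block. Of 84 tested 4 rose and 0 fell without the block, and 24 rose and 1 fell with it, with a median log2FC of 0.14 and of 0.08 on scaling by the upper quartile. Respiratory chain genes called higher numbered 0 without iTreg M22 or M43, 1 without Th0 M29 or M43 or iTreg M42, and 2 without Th0 M22 or M42, against 4 with all libraries. With the block, respiratory genes called higher numbered 6 without the pair M42, 9 without the pair M22, and 14 without the pair M29, against 24. Called without the block were, among others, Ndufaf6 (log2FC 0.69 ± 0.17, adjusted p = 0.0241), Cox5a (log2FC 0.52 ± 0.13, adjusted p = 0.0305), and Ndufb3 (log2FC 0.37 ± 0.09, adjusted p = 0.0283). The calls of Ndufaf6 (without iTreg M22 or M43, adjusted p up to 0.0689), Cox5a (without Th0 M22, M29 or M43 or iTreg M22, M42 or M43, adjusted p up to 0.0817), and Ndufb3 (without Th0 M29, M42 or M43 or iTreg M22, M42 or M43, adjusted p up to 0.0787) ended with 1 library left out. In cholesterol synthesis and transport, 5 rose and 0 fell without the block, and 9 rose and 2 fell with it of 28 tested. Cholesterol genes called higher numbered 2 without iTreg M22 or M43 and 3 without Th0 M43 or iTreg M29, against 5 with all libraries. With the block, cholesterol genes called lower numbered 0 without the pair M22 or M42 and 1 without the pair M29 or M43, against 2. The sterol exporter Abcg1 (log2FC 1.09 ± 0.25, adjusted p = 0.0193), the sterol sensor Insig1 (28 ± 2.63 FPKM in Th0 and 45.7 ± 6.96 FPKM in iTreg cells; log2FC 0.68 ± 0.13, adjusted p = 0.00771), and the enzymes Sc5d (log2FC 0.65 ± 0.17, adjusted p = 0.0341) and Mvd (log2FC 0.65 ± 0.19, adjusted p = 0.0461) rose, while Sqle, which encodes squalene epoxidase, passed in neither fit (log2FC 0.27 ± 0.21, adjusted p = 0.435, with the block 0.0619). The calls of Abcg1 (without iTreg M22 or M43, adjusted p up to 0.0569), Sc5d (without Th0 M29 or M43 or iTreg M22, M29 or M43, adjusted p up to 0.0913), and Mvd (without Th0 M42 or M43 or iTreg M22, M29, M42 or M43, adjusted p up to 0.107) ended with 1 library left out. A pseudocount of 0.1 or scaling by the upper quartile also ended the call of Mvd. Of 32 tested genes of fatty acid synthesis and oxidation, 2 rose and 1 fell without the block, and 8 rose and 6 fell with it (median log2FC 0.02). Fatty acid genes called higher numbered 1 without Th0 M22, M29 or M43 or iTreg M43, against 2 with all libraries. Eci1 (10.1 ± 2.52 FPKM in Th0 and 20.2 ± 3.38 FPKM in iTreg cells; log2FC 0.94 ± 0.18, adjusted p = 0.00902) and Acsl4, which activates polyunsaturated fatty acids (log2FC 0.85 ± 0.22, adjusted p = 0.0288), rose, and the electron carrier Etfa fell (log2FC -0.40 ± 0.11, adjusted p = 0.0316). The calls of Acsl4 (without Th0 M22, M29 or M43 or iTreg M42 or M43, adjusted p up to 0.0794) and Etfa (without Th0 M22, M42 or M43 or iTreg M22, M29 or M43, adjusted p up to 0.0846) ended with 1 library left out. Fasn (log2FC 0.29 ± 0.25, adjusted p = 0.491, with the block 0.0264) and Scd2 (log2FC 0.94 ± 0.55, adjusted p = 0.297, with the block 0.00924) passed only with the block, and Cpt1a, the gate of mitochondrial oxidation, in neither (log2FC -0.13 ± 0.21, adjusted p = 0.731, with the block 0.156).

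Genes of amino acid supply, one-carbon metabolism, and the ATF4 response mostly rose with the block. Of 44 tested 11 rose and 2 fell without the block, and 29 rose and 2 fell with it (median log2FC 0.44, with 0.54, 0.59, 0.19, and 0.26 within the heading pairs). Amino acid and ATF4 genes called higher numbered 7 without Th0 M22 or M29 or iTreg M22 or M29, against 11 with all libraries. Scaling by the upper quartile left 7 called. ATF4 is the transcription factor that cells activate when amino acids are short. Beside Nupr1, Aldh18a1, the first enzyme of proline synthesis from glutamate, was at 28.2, 26.3, 31.9, and 32 FPKM in Th0 and 70.6, 61.6, 62.2, and 64.9 FPKM in iTreg cells (log2FC 1.11 ± 0.10, adjusted p = 0.000193). Cebpb, a partner of ATF4, was at 6.61, 7.73, 8.65, and 5.72 FPKM in Th0 and 25.2, 15.7, 13.2, and 15.3 FPKM in iTreg cells (log2FC 1.14 ± 0.20, adjusted p = 0.00567). Neither gene overlapped between groups. Stc2 fell (4.6 ± 1.82 FPKM in Th0 and 1.2 ± 0.76 FPKM in iTreg cells; log2FC -1.34 ± 0.31, adjusted p = 0.0192). The call of Stc2 (without Th0 M22 or M43, adjusted p up to 0.058) ended with 1 library left out. Asns, which makes asparagine (18 ± 7.96 FPKM in Th0 and 30.1 ± 6.88 FPKM in iTreg cells; log2FC 0.79 ± 0.31, adjusted p = 0.128, with the block 0.0186), and Slc7a5, the large neutral amino acid transporter of activated T cells (45.5 ± 14.7 FPKM in Th0 and 76.3 ± 27.5 FPKM in iTreg cells; log2FC 0.70 ± 0.34, adjusted p = 0.205, with the block 0.00228), passed only with the block. Mthfd2, the mitochondrial one-carbon enzyme, passed in neither (71.7 ± 8.4 FPKM in Th0 and 79.5 ± 4.19 FPKM in iTreg cells; log2FC 0.15 ± 0.11, adjusted p = 0.387, with the block 0.234).

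Among the 34 members with a RefSeq promoter, 5 (14.7%) held the letters TTGCATCA on either strand in the 250 bases before a start site. They were held by 0.918% of all 27025 genes with a promoter and by 0.613% of the 7824 tested ones. As above, any promoter of a gene could match, and the first match is shown. The promoters shown for Nupr1 and Atf3 lie inside the spans of these genes (chr7:126623249-126630861 and chr1:191170296-191218039). These letters are a form of the element that C/EBP and ATF factors bind. Because the list was chosen to hold ATF4 genes, its motif share follows from that choice and is no result of these data. The 5 genes are Aars, Atf3, Chac1, Nupr1, and Pycr1, of which 3 rose without the block and 4 with it. The promoters of Nupr1 (chr7:126625471-126625720 (minus strand)), of the stress factor Atf3 (chr1:191183334-191183583 (minus strand); log2FC 0.66 ± 0.23, adjusted p = 0.0909, with the block 0.0113), and of the proline synthesis enzyme Pycr1 (chr11:120643749-120643998 (minus strand); log2FC 0.64 ± 0.11, adjusted p = 0.00567) are shown from 5′ to 3′ on the strand of the gene, since these genes rose in at least 1 of the fits. Capitals mark the motif as it reads on that strand, which in Pycr1 is the reverse complement TGATGCAA. These 3 were chosen after their values were seen.
Nupr1: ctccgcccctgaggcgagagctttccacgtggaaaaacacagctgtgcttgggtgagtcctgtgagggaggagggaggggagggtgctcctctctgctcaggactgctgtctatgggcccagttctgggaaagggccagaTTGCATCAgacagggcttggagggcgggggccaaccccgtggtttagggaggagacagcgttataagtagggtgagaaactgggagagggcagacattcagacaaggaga
Atf3: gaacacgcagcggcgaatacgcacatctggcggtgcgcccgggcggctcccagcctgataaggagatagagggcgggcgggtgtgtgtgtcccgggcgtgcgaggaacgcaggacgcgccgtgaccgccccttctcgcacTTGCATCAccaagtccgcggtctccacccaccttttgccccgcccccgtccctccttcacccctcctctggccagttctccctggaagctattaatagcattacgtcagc
Pycr1: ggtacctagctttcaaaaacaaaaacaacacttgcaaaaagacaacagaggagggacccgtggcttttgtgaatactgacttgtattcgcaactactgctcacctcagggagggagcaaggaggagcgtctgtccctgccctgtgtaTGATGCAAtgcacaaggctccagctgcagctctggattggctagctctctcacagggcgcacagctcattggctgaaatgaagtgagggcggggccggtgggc
The far end of the match lies 110 bases before the start site in Nupr1 and in Atf3, and 103 bases in Pycr1. Atf3 was at 4.94, 4.73, 7.24, and 9.64 FPKM in Th0 and 8.16, 10.2, 14.6, and 10.6 FPKM in iTreg cells, and Pycr1 at 0.77, 0.823, 1.21, and 1.27 FPKM in Th0 and 2.36, 2.01, 1.94, and 2.22 FPKM in iTreg cells. A match of letters is a description and no evidence of binding in these cells.

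Ribosome biogenesis genes rose more often than they fell. Of 39 tested 7 rose and 0 fell without the block, and 26 rose and 1 fell with it (median log2FC 0.30, with 0.26, 0.45, 0.20, and 0.22 within the heading pairs). Ribosome biogenesis genes called higher numbered 3 without Th0 M22 or iTreg M22 or M43 and 4 without iTreg M42, against 7 with all libraries. With the block, biogenesis genes called higher numbered 15 without the pair M22 and 17 without the pair M42, against 26. Myc, the transcription factor that drives this program (chr15:61985391-61990374, plus strand), was at 60.9, 42.7, 76.1, and 74.1 FPKM in Th0 and 145, 137, 118, and 119.6 FPKM in iTreg cells (log2FC 1.05 ± 0.18, adjusted p = 0.00547). Its antagonist Mxd1 rose as well (7.02 ± 1.24 FPKM in Th0 and 16.1 ± 5.5 FPKM in iTreg cells; log2FC 1.04 ± 0.23, adjusted p = 0.0175), as did the ribosome assembly genes Noc4l (log2FC 0.79 ± 0.20, adjusted p = 0.030) and Nop16 (log2FC 0.66 ± 0.18, adjusted p = 0.0358). The calls of Noc4l (without Th0 M22 or iTreg M22, M42 or M43, adjusted p up to 0.0761) and Nop16 (without Th0 M22 or iTreg M22, M29, M42 or M43, adjusted p up to 0.0857) ended with 1 library left out. Nop56 passed only with the block (log2FC 0.28 ± 0.14, adjusted p = 0.212, with the block 0.0258) and the nucleolin gene Ncl in neither (log2FC 0.15 ± 0.16, adjusted p = 0.579, with the block 0.216). Of 93 tested genes with names in Rpl or Rps, 3 rose and 0 fell without the block, and 34 rose and 1 fell with it, and the median log2FC was 0.20. Rpl and Rps genes called higher numbered 0 without Th0 M43 or iTreg M42 and 1 without Th0 M22 or M29 or iTreg M22 or M29, against 3 with all libraries. With the block, those called higher numbered 5 without the pair M42, 6 without the pair M22, and 18 without the pair M43, against 34. The 1 that fell with the block is Rps6ka1, a kinase and no ribosomal protein. Rpl24, Rpl7a, and Rpl23a had the calls without the block, and with log2FC of 0.40 ± 0.10, 0.35 ± 0.09, and 0.34 ± 0.09 they are, with Vim and Capg, the 5 largest linear increases among called genes. Rpl23a, for example, was at 3336, 3633, 3596, and 3468 FPKM in Th0 and 4353, 4208, 4858, and 4312 FPKM in iTreg cells. On scaling by the upper quartile the list median was 0.15 and 0 of the 93 were called higher. The calls of Rpl24 (without Th0 M22, M29 or M43 or iTreg M29 or M42, adjusted p up to 0.0804), Rpl7a (without Th0 M22, M29 or M43 or iTreg M22, M29 or M42, adjusted p up to 0.0796), and Rpl23a (without Th0 M22, M42 or M43 or iTreg M22, M42 or M43, adjusted p up to 0.0845) ended with 1 library left out. Ribosomal protein genes have many pseudogene copies, and 62.3% of the exonic bases of Rpl23a overlap other gene models, so their values are uncertain.

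Of 77 tested genes of mitochondrial ribosomal proteins, 3 rose and 0 fell without the block, and 16 rose and 0 fell with it, against 8.36% and 20.9% of all tested genes that rose in these fits (median log2FC 0.11, 0.06 on upper-quartile scaling). These genes called higher numbered 1 without Th0 M22 or M43 or iTreg M42, against 3 with all libraries. With the block, those called higher numbered 6 without the pair M42, 8 without the pair M22, and 9 without the pair M29, against 16. Mrps5 (log2FC 0.59 ± 0.13, adjusted p = 0.0163) was called whichever library was left out, and Mrps34 and Mrps18b, which share exonic bases with other genes, were not. The calls of Mrps34 (without Th0 M22, M29, M42 or M43 or iTreg M22 or M42, adjusted p up to 0.0732) and Mrps18b (without Th0 M22, M29 or M43 or iTreg M29, M42 or M43, adjusted p up to 0.0811) ended with 1 library left out. Of 38 tested genes with names from Psma to Psmd, 1 rose and 1 fell without the block, and 11 rose and 2 fell with it. With the block, proteasome genes called higher numbered 3 without the pair M22 or M42 and 5 without the pair M29, against 11. Psmd7, of the regulatory particle, rose (log2FC 0.41 ± 0.09, adjusted p = 0.0146), and Psmb8, the subunit that interferon γ exchanges into the immunoproteasome, fell (log2FC -0.54 ± 0.12, adjusted p = 0.0201). The call of Psmb8 (without Th0 M22 or M43 or iTreg M43, adjusted p up to 0.0588) ended with 1 library left out. Among 29 tested genes of endoplasmic reticulum stress and chaperones, 0 passed without the block, and 12 rose and 1 fell with it. With the block, chaperone and stress genes called higher numbered 7 without the pair M42, against 12. Xbp1, the transcription factor of the unfolded protein response, was at 41.8 ± 9.48 FPKM in Th0 and 66.3 ± 14.5 FPKM in iTreg cells (log2FC 0.65 ± 0.22, adjusted p = 0.0763, with the block 0.000549). The chaperones Hspa5 (log2FC 0.14 ± 0.36, adjusted p = 0.848, with the block 0.238) and Hspd1 (log2FC 0.19 ± 0.25, adjusted p = 0.684, with the block 0.158) passed in neither fit.

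The GIMAP family, small GTPases of lymphocytes that lie side by side in the genome, had falls and no increases. Of 8 tested 0 rose and 4 fell without the block, and 0 rose and 6 fell with it (median log2FC -0.74), with medians of -1.07, -0.99, -0.32, and -0.43 within the heading pairs. GIMAP genes called lower numbered 2 without Th0 M22, M29 or M43 or iTreg M29 or M43, against 4 with all libraries. Gimap7 was at 9.25, 9.15, 12, and 10.3 FPKM in Th0 and 1.23, 3.51, 2.36, and 1.5 FPKM in iTreg cells (log2FC -1.88 ± 0.22, adjusted p = 0.000656), and Gimap6 at 153, 214, 142, and 139 FPKM in Th0 and 69.9, 91.6, 102, and 87.9 FPKM in iTreg cells (log2FC -0.87 ± 0.17, adjusted p = 0.00929). No iTreg library reached the Th0 libraries for either gene. Gimap4 (208 ± 25.8 FPKM in Th0 and 133 ± 29.7 FPKM in iTreg cells; log2FC -0.66 ± 0.18, adjusted p = 0.0399) and Gimap1 (111 ± 17.9 FPKM in Th0 and 78.9 ± 7.49 FPKM in iTreg cells; log2FC -0.48 ± 0.13, adjusted p = 0.0358) were also called. The calls of Gimap4 (without Th0 M22, M29, M42 or M43 or iTreg M29 or M43, adjusted p up to 0.097) and Gimap1 (without Th0 M22, M29 or M43 or iTreg M22, M29, M42 or M43, adjusted p up to 0.0998) ended with 1 library left out. The median fell more in M22 and M29 than in M42 and M43, while Gimap7 fell least in M29. These similar genes may share reads.

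**Figure D5:**
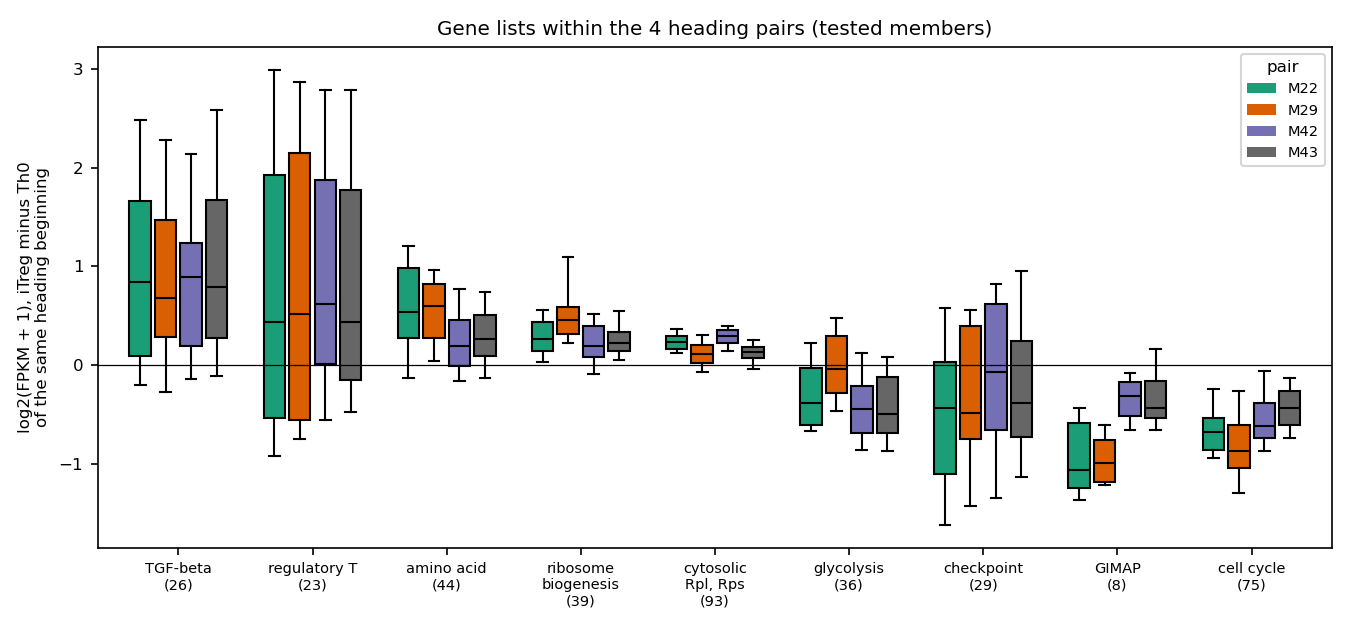
Differences of log2(FPKM + 1), iTreg minus Th0, within the 4 heading pairs (colors) for the tested members of 9 gene lists (x axis, number in brackets). Boxes give the quartiles and the median, and whiskers the 10th and 90th percentile. Cell cycle medians lie below 0 in every pair (-0.68, -0.87, -0.62, and -0.44 in M22, M29, M42, and M43), while the glycolysis median is -0.04 in M29.

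In linear FPKM the largest falls among called genes were those of Nrn1, Pcna, and Stmn1, given above, and of the surface protein genes Cd52 and Ms4a4b. Cd52 was at 539.8, 903, 453, and 545 FPKM in Th0 and 285, 296, 324, and 412 FPKM in iTreg cells (log2FC -0.85 ± 0.22, adjusted p = 0.0288), and Ms4a4b at 463, 438, 165, and 321 FPKM in Th0 and 114, 154, 51, and 74.7 FPKM in iTreg cells (log2FC -1.82 ± 0.41, adjusted p = 0.0173). The calls of Pcna (without Th0 M22 or iTreg M22, adjusted p up to 0.056), Stmn1 (without Th0 M22, M42 or M43, adjusted p up to 0.0631), Cd52 (without Th0 M22 or M43 or iTreg M22, M29 or M42, adjusted p up to 0.0821), and Ms4a4b (without Th0 M22, adjusted p up to 0.0528) ended with 1 library left out. Some genes of sizeable change passed only when the heading beginning was a block, and those with the largest fold change and the same direction in all 4 pairs were Gbp4, Ly6e, Lzts2, Tspan6, and Plek. Ly6e, a membrane-anchored interferon-inducible protein, was at 84.8, 74.1, 25.7, and 61.8 FPKM in Th0 and 27.5, 28.6, 8.34, and 27.6 FPKM in iTreg cells (log2FC -1.39 ± 0.47, adjusted p = 0.0785, with the block 1.00e-04), with M42 far below the other beginnings in both groups. Plek, which encodes pleckstrin, was at 18, 19, 46.6, and 45.6 FPKM in Th0 and 7.57, 4.5, 17.1, and 22.3 FPKM in iTreg cells (log2FC -1.35 ± 0.51, adjusted p = 0.111, with the block 0.000592). Within each beginning the iTreg value of both genes was the lower one, since the naming rule required the same direction in all 4 pairs. Gbp4 was at 19.2, 24.8, 17.5, and 18.5 FPKM in Th0 and 4.58, 24.4, 1.49, and 2.46 FPKM in iTreg cells (log2FC -1.81 ± 0.63, adjusted p = 0.0861, with the block 0.0158), and its M29 libraries hardly differed. Lzts2 (log2FC 1.38 ± 0.48, adjusted p = 0.0894, with the block 0.000388) and Tspan6 (log2FC 1.36 ± 0.42, adjusted p = 0.061, with the block 0.00774) rose with the block.

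Th17 cells (IL6 at 30 ng/ml and TGFβ1 at 5 ng/ml, with antibodies to IL4 and IFNγ) were compared with the same Th0 libraries in a table that was scaled separately, so each comparison has its own values and the 2 were not tested against each other. For Foxp3 the log2FC was 3.81 ± 0.32 in iTreg and -0.17 ± 0.99 in Th17 cells (adjusted p = 0.927). Foxp3 stood at 0.499, 0.502, 4.5, and 42.5 FPKM in the 4 Th17 libraries, with M43 apart from the others. Other genes of the regulatory T cell paragraph rose in Th17 cells too. They include Itgae (3.08 ± 0.37, adjusted p = 0.000531), Nt5e (2.92 ± 0.25, 0.000107), Ctla4 (1.77 ± 0.19, 0.000345), and Il2ra (1.1 ± 0.29, 0.0295). Ikzf4 passed only with the block (0.76 ± 0.33, adjusted p = 0.147, with the block 0.0408), and Tnfrsf18 fell (-2.0 ± 0.30, adjusted p = 0.00186). Il17f had 5.53 ± 0.35 in iTreg and 8.64 ± 0.28 in Th17 cells. Of the TGFβ feedback genes, Pmepa1 had 2.93 ± 0.09 and 3.16 ± 0.11, and Smad7 1.61 ± 0.19 and 1.89 ± 0.22. Of the STAT5 feedback genes, Socs2 had 3.31 ± 0.29 and -0.88 ± 0.95, and Cish 1.9 ± 0.29 and -1.04 ± 0.54. In Th17 cells Socs2 passed in neither fit (adjusted p = 0.57, with the block 0.389). Cish was lower in Th17 cells and passed only with the block (adjusted p = 0.222, with the block 0.0167). Vim had 2.27 ± 0.41 and 0.18 ± 0.73 (adjusted p = 0.896 in Th17 cells), at 131, 61.9, 333, and 718 FPKM in the Th17 libraries, where M43 was again the highest.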

How the data were processed

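RNA from Th0 and iTreg cultures was taken at 72 h (4 libraries a group) and sequenced on an Illumina HiSeq as paired-end 100 nt reads. Reads were aligned by the authors to mm10 with TopHat 2.0.14 and counted with HTSeq-count over exons (union mode, strand not used). Genes without more than 1 CPM in at least 4 samples were removed by the authors before edgeR was run in a pair-wise design. The deposited values used here are FPKM, and the sources used here give neither their calculation nor the gene annotation. Each deposited table also holds the authors' own comparison as a log2 fold change, a log2 mean CPM, a likelihood-ratio score, a p-value, and an adjusted p-value, and none of these columns was used. Read counts and depth per library are unknown, so no count model was fitted, and low values are less precise than high ones. A relative depth was estimated from the ratio of libraries that most low FPKM values share, which for the iTreg libraries was shared by few more genes than the next ratio.

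FPKM were tested as log2(FPKM + 1) with limma 3.58.1 (R 4.3.3) for genes over 1 FPKM in at least 4 libraries, without trend or robust option, two-sided, with Benjamini-Hochberg adjustment at FDR 0.05 over all 10208 genes. A second fit had the heading beginning (M22, M29, M42, or M43) as a block. The sources do not say what the beginnings mark, but same-beginning libraries of the 2 groups deviated from their group means together (correlation over genes 0.662 to 0.769 in 4 pairs, against -0.576 to 0.248 in 12 pairs of other beginnings), so the beginnings were taken to pair the libraries. Headings ending in _1 stand in both tables and were taken as Th0, and those ending in _4 as iTreg. The labels number 4 experiments, which could not be matched to the headings. The paper describes 4 independent cultures, but nothing says that the libraries come from separate mice. The p-values without the block therefore measure the spread between these libraries. Those with the block measure the spread left after what a heading pair shares is removed. Both fits were also run on simulated data with 200 changed genes. Without the block 69% of the 2-fold changes were recovered and 0% of calls were false, and with it 92% and 5.47%. The simulation added heading effects to noise drawn separately for each gene, which is the form the block fit assumes. It therefore does not show how either fit performs on real libraries.

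Gene lists, tests, and the rule for named genes were chosen with earlier results of these data known. Named were the 10 highest and 10 lowest log2 fold changes among called genes without overlap, preset anchor genes and up to 4 called genes of each list, the 5 largest linear rises and falls, the 5 largest genes called only with the block, and genes whose promoter held a motif. Alternatives were the block, a pseudocount of 0.1, no filter, a filter on all 8 libraries, limma-trend with the robust option, FDR 0.01, upper-quartile scaling, and each library left out in turn. The block with each heading pair left out was added after seeing the data. Positions and shared exonic bases come from GENCODE M21 (GRCm38), which held 194 of the 196 named genes by symbol, and promoters from RefSeq (GRCm38.p6). Of the named genes 14 share more than 20% of their exonic bases with other gene models, so their values are uncertain. Beside those marked above they include S100a4 (51.7%), Rpl24 (47%), Il12rb2 (40%), Gimap1 (36%), Hist1h2ai (35.1%), Tnfrsf18 (27.2%), Ankrd37 (26.4%), and Cebpb (20.7%). Python 3.11.15, numpy 2.4.6, pandas 2.3.3, and matplotlib 3.10.9 were used. Some genes are not reported here, though the counts of lists include them.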

Additional observations from a re-analysis of the deposited data

Results flagged for a closer look

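In 19 sets of 4 libraries of 1 gene in 1 group (4.85% of those examined), 1 library stood apart, with a gap to the nearest of the others above Dixon's 95% critical value for 4 samples, as a share of the group's range. Chance gives about 1 in 20. Of the 19 libraries so marked, 11 were of M42, 4 of M29, 2 of M22, and 2 of M43.

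The iTreg library M42 was the lowest for Aqp3 (30.9 FPKM against 70.9 to 83 FPKM, ratio 0.840), Tgfbr1 (61.4 FPKM against 100.1 to 110.2 FPKM, ratio 0.835), Itgb7 (22.3 FPKM against 53 to 56.6 FPKM, ratio 0.929), Itga4 (0.993 FPKM against 2.07 to 2.23 FPKM, ratio 0.895), Tnfrsf4 (158 FPKM against 199.5 to 203 FPKM, ratio 0.932), and Ly6e (8.34 FPKM against 27.5 to 28.6 FPKM, ratio 0.968), and the highest for Eno3 (34.4 FPKM against 20.6 to 22.1 FPKM, ratio 0.866). The Th0 library M42 was the lowest for Tgfbr1 (7.03 FPKM against 11 to 11.9 FPKM, ratio 0.841), Itga4 (2.49 FPKM against 4.71 to 4.8 FPKM, ratio 0.969), Cd69 (57.6 FPKM against 80.7 to 83 FPKM, ratio 0.925), and Abcg1 (0.936 FPKM against 2.27 to 2.43 FPKM, ratio 0.915). For Tgfbr1 and Itga4, M42 thus stood apart in both groups in the same direction. The iTreg library M29 was the highest for Slamf6 (11.4 FPKM against 7.99 to 8.44 FPKM, ratio 0.851), and the lowest for Anxa3 (2.41 FPKM against 5.9 to 6.09 FPKM, ratio 0.964) and Stmn1 (123 FPKM against 248 to 277 FPKM, ratio 0.864), and the Th0 library M29 was the lowest for Cish (27.9 FPKM against 65.2 to 75.9 FPKM, ratio 0.847). The iTreg library M22 was the highest for Jun (36.3 FPKM against 24 to 24.7 FPKM, ratio 0.931) and the lowest for Gimap4 (89 FPKM against 143 to 152 FPKM, ratio 0.892). The Th0 library M43 was the highest for Pdcd1 (146 FPKM against 89.6 to 92.3 FPKM, ratio 0.939) and the only one above 0 for Il9 (0.79 FPKM against 0 FPKM, ratio 1.000). The part of what a heading beginning marks in these values was not tested.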

How the results depend on the processing

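Of 1691 called genes, 778 (449 higher and 329 lower) passed an FDR of 0.01. With the replicate block 4170 genes (2131 higher and 2039 lower) passed. Among list genes 216 passed without the block, 527 with it, and 100 at an FDR of 0.01. With 1 library left out 1140 to 1521 genes passed (615 to 776 higher and 520 to 745 lower, lowest without Th0 M22 and also low, at 525, without iTreg M22), and 147 to 194 list genes did. With the block and a heading pair left out 2892 to 3748 passed (1426 to 1923 higher and 1466 to 1825 lower), and 397 to 492 list genes did. The other settings left the number of called genes within 1.5 times. Of 132 called genes of the naming rule, 84 were called whichever library was left out, and none reversed its direction or lost its call with the block over all pairs. With the block and a pair left out, the calls of Gimap1 (without M22), Ndufb3 (without M42), and Tet3 (without M42 or M43) ended. List counts of 0 or 1 moved by at most 1 with a library left out, other than the one given for T cell identity genes. Scaling by the upper quartile, which moved the median log2FC of all genes from 0.01 to -0.03, ended the calls of Mrps18b, Mrps34, Mvd, Rpl23a, Rpl24, and Rpl7a. A pseudocount of 0.1 ended those of Ankrd37, Itgb3, Mvd, Slc2a3, and Uhrf1, the filter on all 8 libraries those of Ankrd37, Slc2a3, and Uhrf1, and limma-trend that of Ankrd37. Reversed directions occurred in 17 genes that were not called without the block, with log2FC over the leave-one-out fits of Actb (-0.077 to 0.16), Ccnb1 (-0.88 to 0.017), Ccr7 (-0.42 to 0.26), Eno3 (-0.087 to 0.18), Hspa5 (-0.16 to 0.41), Hspd1 (-0.023 to 0.33), Icos (-0.65 to 0.011), Il12rb2 (-0.31 to 0.075), Il6st (-0.41 to 0.19), Irf1 (-0.44 to 0.50), Itgb7 (-0.23 to 0.45), Klf2 (-0.36 to 0.40), Runx3 (-0.23 to 0.00057), Slc2a1 (-0.13 to 0.33), Tap1 (-0.076 to 0.51), Tnf (-0.012 to 0.36), and Tnfrsf4 (-0.25 to 0.078). Actb was also reversed by upper-quartile scaling, to -0.016. Since the files hold no read counts, differences of low genes may be undetectable at a depth that is unknown.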
